A study of Mus musculus with 36 samples.

Results

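The 9 mouse spleens with the highest levels of 7 neutrophil transcripts were compared with the 9 spleens with the lowest levels, out of 36 spleens in all. Each spleen was scored by the mean of its gene-centred log2 levels of S100a8, S100a9, Ngp, Camp, Ltf, Lcn2 and Mmp8, and the 9 arrays at each end of that score are called the neutrophil-rich and the neutrophil-poor set. These sets were chosen by a measured value, so the 7 genes are given below as a description and support nothing else. The series profiled RNA of whole spleens from 18 arthritic and 18 non-arthritic mice, 1 Affymetrix mouse array per mouse. All animals were 4 months old and belonged to an F2 generation, and the series title concerns arthritis in mice deficient in the interleukin 1 receptor antagonist. The labels give no treatment, and for no single mouse a genotype, strain, sex, arthritis score or processing date. The rich set holds 4 arthritic and 5 non-arthritic mice, the poor set 3 arthritic and 6 non-arthritic mice.

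Neutrophils are short-lived phagocytes that mature in the bone marrow and, in mice, also in the red pulp of the spleen. A promyelocyte first makes the proteases and the peroxidase of the primary granules, a myelocyte then makes the contents of the specific granules, among them lactoferrin, lipocalin 2 and cathelicidin, and gelatinase and the chemoattractant receptors come last. S100a8 and S100a9 form calprotectin, the most plentiful protein of the neutrophil cytoplasm, and the mouse spleen also remains a site of red cell and platelet formation in the adult.

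The start sites of the score genes are shown first because their transcripts set the comparison, and C/EBP factors are known regulators of granule genes. The C/EBP consensus TTNNGCAA was searched on both strands in RefSeq windows of 300 bases, 250 before and 50 after each annotated start (assembly GRCm38.p6). It was present in the windows of 5 of the 7 score genes (S100a9, Ngp, Ltf, Lcn2 and Mmp8), in 2 of the 7 primary granule genes of smallest p (Fcnb and Ms4a3), and in 10.8% of all 32851 windows. Capitals mark the match, which reads as its reverse complement where it lies on the other strand, and each window is written 5′ to 3′ on the strand of its gene.
S100a9 (chr3:90695672-90695971, minus strand): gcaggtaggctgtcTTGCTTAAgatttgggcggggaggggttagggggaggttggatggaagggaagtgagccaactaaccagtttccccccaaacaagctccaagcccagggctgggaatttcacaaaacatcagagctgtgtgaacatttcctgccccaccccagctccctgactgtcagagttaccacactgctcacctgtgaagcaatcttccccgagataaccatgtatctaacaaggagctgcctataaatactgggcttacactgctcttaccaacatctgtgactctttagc
Ngp (chr9:110419558-110419857, plus strand): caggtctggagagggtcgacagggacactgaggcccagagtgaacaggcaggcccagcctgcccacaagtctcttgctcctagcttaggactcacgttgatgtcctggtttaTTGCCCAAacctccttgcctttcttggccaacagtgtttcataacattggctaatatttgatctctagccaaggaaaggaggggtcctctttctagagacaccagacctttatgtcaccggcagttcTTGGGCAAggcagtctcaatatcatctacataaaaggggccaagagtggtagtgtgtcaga
Ltf (chr9:111019042-111019341, plus strand): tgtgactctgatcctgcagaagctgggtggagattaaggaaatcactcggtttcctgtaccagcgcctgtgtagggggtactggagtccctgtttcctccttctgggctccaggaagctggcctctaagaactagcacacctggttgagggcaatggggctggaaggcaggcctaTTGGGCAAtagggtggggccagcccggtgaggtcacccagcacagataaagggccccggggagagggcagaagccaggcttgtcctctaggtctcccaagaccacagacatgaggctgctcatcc
Lcn2 (chr2:32387690-32387989, minus strand): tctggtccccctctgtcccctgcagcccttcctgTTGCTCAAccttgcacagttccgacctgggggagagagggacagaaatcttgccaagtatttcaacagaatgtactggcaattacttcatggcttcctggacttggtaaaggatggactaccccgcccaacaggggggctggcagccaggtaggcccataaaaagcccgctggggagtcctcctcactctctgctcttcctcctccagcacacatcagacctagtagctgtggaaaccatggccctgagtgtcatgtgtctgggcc
Ngp held 2 matches and the other 3 windows 1 each. A match says only that these letters occur there.

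By construction the sets did not overlap in the score. It ran from 0.60 to 1.25 in the rich set, with a median of 0.91, and from -1.44 to -0.53 in the poor set, with a median of -1.09. Non-arthritic mouse 17 was the last array inside the upper end at 0.60, and non-arthritic mouse 8 just outside had 0.51. At the lower end arthritic mouse 16 was inside at -0.53 and non-arthritic mouse 18 outside at -0.38. The highest score of all belonged to non-arthritic mouse 12 (1.25) and the lowest to non-arthritic mouse 5 (-1.44), so both extremes of the series were spleens without arthritis.

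**Figure D1:**
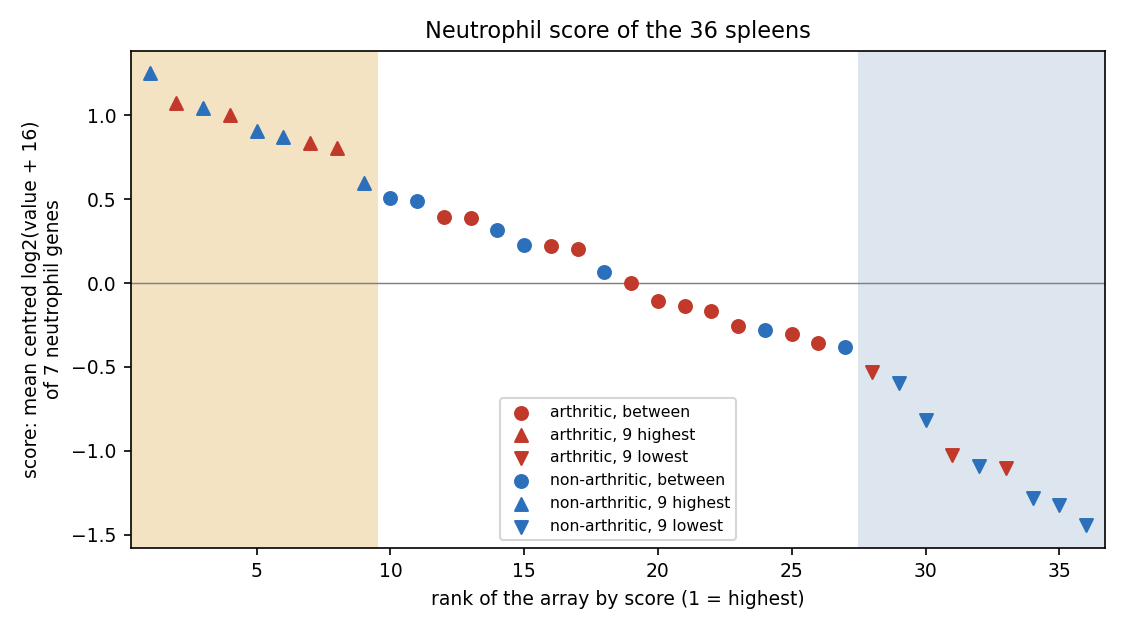
Neutrophil score (vertical axis, mean centred log2 of value + 16 over 7 genes) of the 36 spleens against their rank by score, with arthritic mice in red, non-arthritic mice in blue, and the 9 highest and 9 lowest arrays as triangles on shaded ground. The score runs from 1.25 down to -1.44, and both disease groups lie at both ends.

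Among the 7 score genes, the set means differed least for the calprotectin subunits, by 1.22 for S100a8 and 1.39 for S100a9 on the scale of log2(value + 16), which is used throughout. Ngp, a neutrophil granule protein, differed by 1.73 and Camp, the cathelicidin precursor, by 2.24. The iron-binding lactoferrin Ltf differed by 2.48, the siderophore-binding Lcn2 by 2.33 and the collagenase Mmp8 by 2.30. In median intensity Ltf stood at 11743 in the rich and 2227 in the poor set, and Mmp8 at 1196 and 165. Over the 36 arrays the correlation between any pair of these genes lay between 0.77 and 0.98, and was at least 0.91 for the pairs without Mmp8, as a description of the rule.

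Outside these genes, 440 of 12420 genes were higher in the rich set (3.54%) and 218 were lower (1.76%) at a limma p adjusted over all 27015 probe sets tested, with a median difference over all genes of -0.04. Differences were positive for 5413 of the 12420 genes and negative for 7007, called or not. In terms of probe sets, 607 were higher and 376 lower, 983 in all. The sets did not overlap at all for 61 genes that were higher (0.491%) and 14 that were lower (0.113%). The count of 983 hung on single mice: it was 312 without non-arthritic mouse 12, 470 without arthritic mouse 18, 571 without non-arthritic mouse 7, 585 without arthritic mouse 13, 636 without non-arthritic mouse 5 and 1516 without arthritic mouse 1. RNA quality measures overlapped between the sets, with Gapdh 3′ to 5′ ratios of 0.74 to 1.07 in the rich and 0.73 to 1.16 in the poor set, and actin ratios of 1.22 to 1.81 and 1.16 to 2.74. Arrays fell into 3 clusters by the hybridisation controls added to each sample, called control clusters A, B and C here. The rich set took 3 arrays from each, and the poor set 3, 5 and 1. In A all poor arrays came from non-arthritic mice, and in B all rich arrays did. The comparisons within A or B given below therefore also differ in disease label.

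Primary granule and precursor transcripts gave the largest median difference of the 27 lists: 9 of 12 tested genes were higher in the neutrophil-rich spleens, 0 were lower, and the list's median difference was 1.87 against -0.04 for all genes. Of all genes 3.54% were higher and 1.76% lower. Ctsg, the granule protease cathepsin G, ran from 10.86 to 12.65 with a median of 11.73 in the neutrophil-rich set and from 8.25 to 9.71 with a median of 9.36 in the neutrophil-poor set. Every rich spleen was thus above every poor one, and the difference was 2.58 (SE 0.22, 5.98-fold higher in the rich set, adjusted p = 2.35e-07). Elane, neutrophil elastase, stood at 12.46 ± 0.36 against 10.16 ± 0.43 (mean ± SD, n = 9 per set, as in all such pairs), again without overlap, a difference of 2.31 (SE 0.17, 4.94-fold higher in the rich set, adjusted p = 4.59e-08). Mpo, the peroxidase that makes hypochlorous acid, ran from 13.08 to 14.21 with a median of 13.54 in the neutrophil-rich set and from 10.43 to 11.80 with a median of 11.15 in the neutrophil-poor set, a difference of 2.37 (SE 0.19, 5.18-fold higher in the rich set, adjusted p = 7.88e-08).

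Fcnb, a ficolin that recognises microbial sugars, had the smallest p of the whole comparison. It ran from 10.03 to 10.73 with a median of 10.30 in the neutrophil-rich set and from 7.75 to 8.42 with a median of 8.03 in the neutrophil-poor set, and differed by 2.22 (SE 0.12, 4.64-fold higher in the rich set, adjusted p = 6.39e-10). Prtn3, proteinase 3, differed by 2.23 (SE 0.19, adjusted p = 2.26e-07), and Ms4a3, a membrane protein of granulocyte precursors, by 2.25 (SE 0.17, adjusted p = 4.59e-08). Hdc, which makes histamine, differed by 1.52 (SE 0.20, adjusted p = 0.00014). Of the transcription factors of early myeloid cells, Myb was higher by 0.75 (SE 0.14, adjusted p = 0.00857) and Gfi1 by 0.67 (SE 0.15, adjusted p = 0.0175), whereas Cebpa stood at 9.60 ± 0.27 against 9.73 ± 0.18 and did not pass, nor did Ctsc (-0.10) and Igsf6 (0.60). Within control clusters the Elane difference was 2.50 among the arrays of control cluster A and 2.17 among those of control cluster B, and that of Ctsg was 2.62 among the arrays of control cluster A and 2.50 among those of control cluster B. The count of 9 genes was the same with any 1 of the 18 mice left out. These genes belong to the same lineage as the score genes, so their direction is not independent of how the sets were chosen. In these bulk samples more cells of a type and more RNA per cell cannot be told apart.

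Transcripts of later granule and secreted proteins were higher as well. Of 22 tested genes 16 were higher, beside 3.54% of all genes, and 0 lower, with a median difference of 1.48. Cd177, a surface glycoprotein of neutrophils, ran from 10.88 to 12.09 with a median of 11.33 in the neutrophil-rich set and from 7.76 to 9.61 with a median of 8.78 in the neutrophil-poor set. The sets were apart by more than 1 log2 unit at their nearest arrays, and the difference was 2.54 (SE 0.19, 5.83-fold higher in the rich set, adjusted p = 4.59e-08). Mmp9, the gelatinase of the last granules to form, ran from 9.06 to 10.25 with a median of 9.53 in the neutrophil-rich set and from 7.25 to 8.78 with a median of 8.01 in the neutrophil-poor set, a difference of 1.62 (SE 0.20, 3.07-fold higher in the rich set, adjusted p = 4.86e-05). Anxa1, annexin A1, a cytoplasmic protein that restrains neutrophil migration, differed by 1.47 (SE 0.11, adjusted p = 4.59e-08), and the receptor Trem3 by 1.49 (SE 0.13, adjusted p = 2.35e-07).

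Olfm4, carried by a subset of mouse neutrophils, was higher by 1.94 (SE 0.20, adjusted p = 4.89e-06), and Hp, haptoglobin, which is stored in granules besides its secretion by liver, by 1.88 (SE 0.21, adjusted p = 1.33e-05). Pglyrp1, a peptidoglycan-binding granule protein, differed by 1.75 (SE 0.18, adjusted p = 5.57e-06) and Padi4, the deiminase that citrullinates histones, by 1.89 (SE 0.32, adjusted p = 0.00289). Chil3 differed by 2.48 (SE 0.19, adjusted p = 7.88e-08) and Wfdc21 by 2.05 (SE 0.18, adjusted p = 2.35e-07). Chil3 belongs to a family with near-identical copies, so its probe set may read more than 1 of them, and the same holds for Stfa2l1 (1.23). The other 6 did not pass, among them Lyz2, the lysozyme that macrophages also make, at 14.32 ± 0.21 against 14.16 ± 0.17, and Adam8 and Arg2 with differences of 0.02 and -0.54. Ptx3 and Stfa3 lay under the intensity filter and were not tested.

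Surface receptors and migration genes split: 12 of 27 were higher, beside 3.54% of all genes, 0 lower, and the median difference was 0.69. Ltb4r1, the receptor for leukotriene B4, ran from 7.80 to 8.91 with a median of 8.33 in the neutrophil-rich set and from 5.16 to 7.07 with a median of 6.33 in the neutrophil-poor set, a difference of 1.99 (SE 0.23, 3.96-fold higher in the rich set, adjusted p = 2.21e-05). The poor median of Ltb4r1 lay under the intensity filter's cut of 6.49, so the size of its difference is uncertain. Fpr2, a formyl peptide receptor, differed by 1.49 (SE 0.17, adjusted p = 2.21e-05) with no overlap between the sets. Alox5 and Alox5ap, the lipoxygenase and its partner protein that begin leukotriene synthesis, differed by 1.21 (SE 0.19, adjusted p = 0.00133) and 1.02 (SE 0.12, adjusted p = 2.04e-05). Itgam, the alpha chain of the integrin Mac-1, and C5ar1, the receptor for complement C5a, were higher by 1.22 and 1.05, as were Clec5a (1.21), Clec4e (1.02), Ccr1 (0.82), Fcgr4 (0.73) and Trem1 (0.69).

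The other 15 genes of the receptor and migration list did not pass, Cxcr2, Csf3r and Cxcr4 among them. Over the whole list 24 of 27 differences were positive, beside 43.6% of all genes. Cxcr2, the receptor for CXC chemokines that draws neutrophils out of the marrow, ran from 7.84 to 8.69 with a median of 8.28 in the neutrophil-rich set and from 5.72 to 8.61 with a median of 7.52 in the neutrophil-poor set. The highest poor spleens reached the range of the rich ones, and the difference of 0.89 (SE 0.28, adjusted p = 0.0795) did not pass. Csf3r, the receptor for granulocyte colony-stimulating factor, stood at 9.91 ± 0.63 against 9.35 ± 0.50 and differed by 0.56 (SE 0.24, adjusted p = 0.205). Cxcr4, which holds cells in the marrow, differed by -0.19 (SE 0.14, adjusted p = 0.498). The cytosolic and membrane subunits of the NADPH oxidase, which makes superoxide in phagocytes, gave 0 calls by limma among 6 genes, with 1 at an unadjusted p under 0.05: Cybb differed by 0.34 (SE 0.17, adjusted p = 0.306), Ncf1 by 0.24 (SE 0.11, adjusted p = 0.235) and Cyba by 0.01 (SE 0.09, adjusted p = 0.974).

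**Figure D2:**
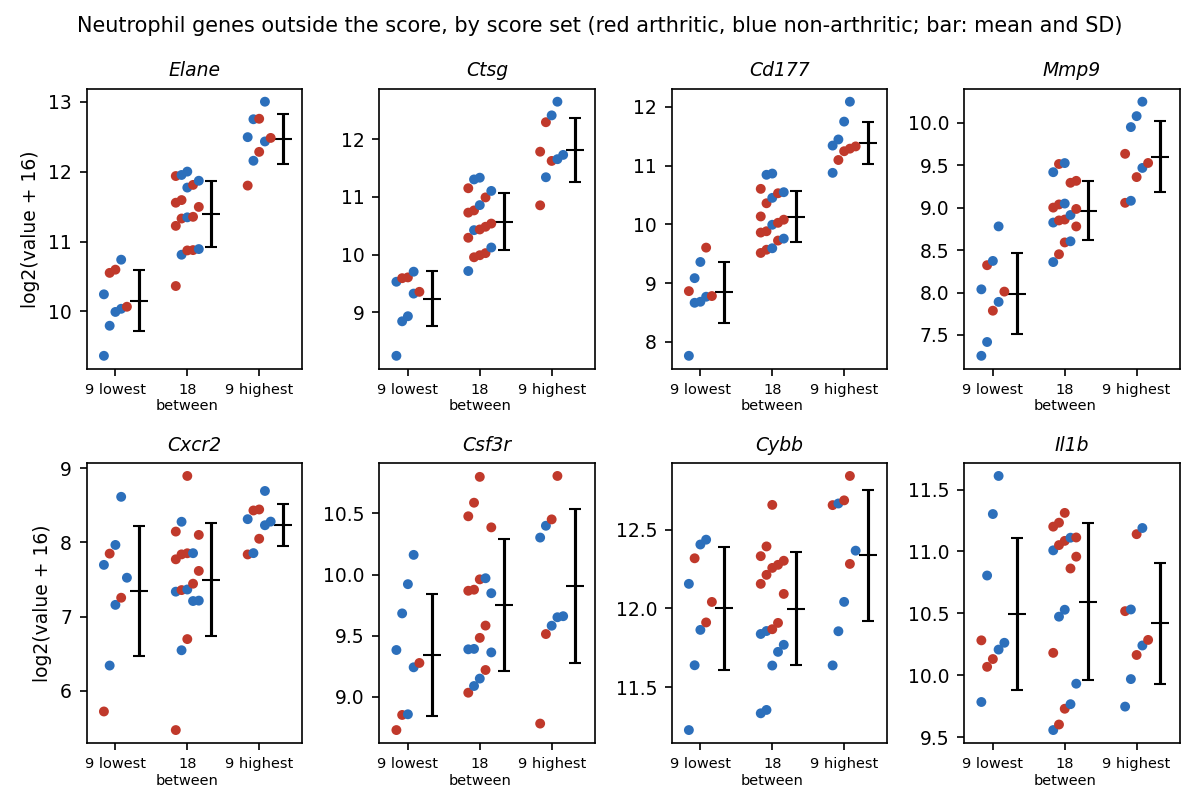
log2(value + 16) of 8 neutrophil genes outside the score in the 9 lowest, 18 intermediate and 9 highest arrays by score; each point is 1 mouse (red arthritic, blue non-arthritic) and bars give the mean and SD of the set. Elane, Ctsg, Cd177 and Mmp9 separate the extreme sets completely, while Cxcr2, Csf3r, Cybb and Il1b overlap.

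Of 9 tested chemoattractants, growth factors and adhesion molecules, which call neutrophils into tissue, 2 were higher and 1 lower, beside 3.54% and 1.76% of all genes. Both that were higher are platelet products: Selp, P-selectin, with 0.83 (SE 0.18, adjusted p = 0.0178), and Ppbp, the precursor of platelet CXCL7, with 0.71 (SE 0.18, adjusted p = 0.0316). Icam1, the endothelial ligand of Mac-1, was lower with -0.49 (SE 0.12, adjusted p = 0.0281). The Icam1 call was lost without arthritic mouse 13, 14 or 18 or non-arthritic mouse 5, 7 or 12, and the Ppbp call without arthritic mouse 13 or 18 or non-arthritic mouse 1, 2, 5, 7 or 12. Cxcl1 stood at 8.73 ± 0.48 against 8.39 ± 0.40, and Csf3, Cxcl2, Il17a and Il6 lay under the intensity filter in these spleens.

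Of the interleukin 1 family and its signalling, which the mouse model concerns, 1 of 20 genes was higher and 1 lower. Beside the 3.54% higher and 1.76% lower of all genes, these counts say nothing particular about the family. Il1r2, a decoy receptor that binds interleukin 1 without signalling and is known from neutrophils, ran from 7.17 to 8.30 with a median of 8.08 in the neutrophil-rich set and from 6.62 to 7.72 with a median of 7.19 in the neutrophil-poor set, a difference of 0.77 (SE 0.16, 1.70-fold higher in the rich set, adjusted p = 0.0164). The lowest rich spleen, non-arthritic mouse 17, lay inside the poor range. Sigirr, an inhibitory receptor of the family, was lower with -0.41 (SE 0.11, adjusted p = 0.0448), a call lost without arthritic mouse 3, 13, 14, 16 or 18 or non-arthritic mouse 2, 6, 7, 10, 12, 14 or 17. Il1b itself stood at 10.42 ± 0.49 against 10.50 ± 0.61 and Il1rn at 6.63 ± 0.50 against 6.43 ± 0.76, with differences of -0.07 (SE 0.23, adjusted p = 0.908) and 0.20 (SE 0.30, adjusted p = 0.787). Il1rn lay close to the intensity filter's cut of 6.49, and it is the gene whose deficiency the series title names. With no genotype given per mouse, its values cannot say whether it follows the score.

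Among genes of other myeloid cells, 3 of 16 monocyte genes were higher, beside 3.54% of all genes: F13a1, the coagulation factor XIII A chain, with 1.41 (SE 0.16, adjusted p = 1.18e-05), Emilin2 with 0.89 (SE 0.19, adjusted p = 0.0164) and the chemokine Ccl9 with 0.61 (SE 0.14, adjusted p = 0.02). Csf1r, the receptor of the monocyte growth factor, differed by 0.03 (SE 0.09, adjusted p = 0.888) and Ccr2 by 0.37 (SE 0.17, adjusted p = 0.239). Of 18 red pulp and marginal zone macrophage genes limma called 0, with 2 at an unadjusted p under 0.05; Cd5l had the largest difference, 0.94 (SE 0.28, adjusted p = 0.062), and Marco the lowest, -0.65 (SE 0.24, adjusted p = 0.127). A single macrophage gene passed when arthritic mouse 1 or 12 or non-arthritic mouse 2 was left out.

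Mcpt8, a basophil protease, was the only 1 of 12 eosinophil, mast cell and basophil genes to pass, beside 3.54% of all genes higher. It ran from 7.01 to 8.83 with a median of 7.94 in the neutrophil-rich set and from 4.91 to 7.14 with a median of 6.21 in the neutrophil-poor set, a difference of 1.97 (SE 0.29, 3.91-fold higher in the rich set, adjusted p = 0.00066). The poor median of Mcpt8 lay under the intensity filter's cut of 6.49, so the size of its difference is uncertain. The IgE receptor chain Fcer1a differed by 0.70 (SE 0.23, adjusted p = 0.0945). The mast cell carboxypeptidase Cpa3 differed by 0.56 (SE 0.25, adjusted p = 0.229), and neither of these genes passed. All 17 dendritic cell genes had negative differences, as did 7007 of all 12420 genes. Of the 17, 2 passed, beside 1.76% lower of all genes: Irf8, a factor that dendritic cells and B cells need, with -0.33 (SE 0.07, adjusted p = 0.0207), and Itgax, CD11c, with -0.33 (SE 0.09, adjusted p = 0.0466). The dendritic cell count was 4 without non-arthritic mouse 17, and 1 without arthritic mouse 3, 13, 16 or 18 or non-arthritic mouse 1, 3, 5, 7, 10 or 12.

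Part of the red cell precursor genes was higher in the neutrophil-rich spleens. All 32 tested erythroid genes had positive differences (43.6% of all genes did), 14 passed (3.54% of all genes did) and the median difference was 0.63. Gata1, the factor that directs red cell and megakaryocyte development, ran from 11.30 to 12.42 with a median of 11.71 in the neutrophil-rich set and from 10.19 to 11.44 with a median of 10.87 in the neutrophil-poor set, a difference of 0.93 (SE 0.19, 1.91-fold higher in the rich set, adjusted p = 0.0122). The highest poor spleens reached the lowest rich ones. Epor, the erythropoietin receptor, ran from 10.39 to 11.37 with a median of 10.94 in the neutrophil-rich set and from 9.06 to 10.49 with a median of 10.12 in the neutrophil-poor set, a difference of 0.84 (SE 0.16, 1.79-fold higher in the rich set, adjusted p = 0.0108). Tal1, a partner of Gata1, differed by 0.75 (SE 0.16, adjusted p = 0.0159) and Uros, an enzyme of haem synthesis, by 0.75 (SE 0.16, adjusted p = 0.0159). Genes that did not pass included the anion exchanger Slc4a1 with 0.51 (SE 0.15, adjusted p = 0.0561) and the haem enzyme Alas2 with 0.61 (SE 0.21, adjusted p = 0.0996). For the globin Hba-a1, only probe sets that name it alone were considered, and the highest of these lay under the intensity filter. Probe sets that name several genes were not used, so this is no measure of the globin level.

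The GATA consensus AGATAA was searched in the same way near the starts of the called erythroid genes. The table holds 15 windows for 11 of them, and it was found in 4 of these 15 windows (1 each of Epor, Tal1, Rhd and Trim10) and in 11.2% of all windows. Tal1 has a further window without a match. The windows of the first 2 are shown with the match in capitals, both times as the reverse complement TTATCT.
Epor (chr9:21963527-21963826, minus strand): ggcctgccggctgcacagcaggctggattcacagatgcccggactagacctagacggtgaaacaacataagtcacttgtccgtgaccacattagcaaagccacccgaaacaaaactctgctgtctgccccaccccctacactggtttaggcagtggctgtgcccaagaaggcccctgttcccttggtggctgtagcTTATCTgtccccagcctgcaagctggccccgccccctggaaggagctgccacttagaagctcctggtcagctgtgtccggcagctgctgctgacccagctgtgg
Tal1 (chr4:115056176-115056475, plus strand): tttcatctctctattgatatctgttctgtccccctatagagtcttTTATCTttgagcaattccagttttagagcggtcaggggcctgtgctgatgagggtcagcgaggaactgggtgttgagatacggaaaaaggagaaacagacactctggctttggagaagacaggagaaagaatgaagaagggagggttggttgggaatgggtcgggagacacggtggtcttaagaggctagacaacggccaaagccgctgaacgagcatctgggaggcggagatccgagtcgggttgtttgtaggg
These letters do not show that a factor binds there.

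The erythroid count at the adjusted threshold changed with single mice. It was 6 without non-arthritic mouse 12, 7 without arthritic mouse 13 or non-arthritic mouse 6 or 7, and 23 without arthritic mouse 1. Arthritic mouse 18, a poor spleen, had the lowest erythroid list score of all (-1.31; the other poor spleens began at -0.52), and without it 10 genes passed. The differences themselves changed less. Without non-arthritic mouse 12 all 32 were positive, with a median of 0.60 and 28 genes at an unadjusted p under 0.05. Without arthritic mouse 18 all 32 were positive too, with a median of 0.49 and 28 such genes. With all mice 29 genes had an unadjusted p under 0.05. With both sets taken again after leaving out the arrays that carry pancreas transcripts, 4 passed. Limma called 0 within arthritic and 0 within non-arthritic mice, with 27 and 24 at an unadjusted p under 0.05. Within control clusters limma called 0 erythroid genes, with 19 at an unadjusted p under 0.05 in A and 21 in B, and all 32 differences were positive in both, with medians of 0.54 and 0.71. Of all probe sets tested 42.5% had positive differences in A and 47.2% in B.

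Of 29 replication genes 19 were higher and 0 lower, with a median of 0.55, and of 29 mitosis genes 25 were higher and 0 lower, with a median of 0.67. Of all genes 3.54% were higher. Top2a, the topoisomerase that untangles chromosomes, ran from 12.57 to 13.26 with a median of 12.88 in the neutrophil-rich set and from 11.32 to 12.50 with a median of 11.96 in the neutrophil-poor set. The sets did not overlap, and the difference was 0.81 (SE 0.14, 1.76-fold higher in the rich set, adjusted p = 0.00441). Mcm2, a subunit of the replicative helicase, ran from 11.72 to 12.41 with a median of 11.85 in the neutrophil-rich set and from 10.66 to 11.69 with a median of 11.37 in the neutrophil-poor set, a difference of 0.63 (SE 0.12, 1.55-fold higher in the rich set, adjusted p = 0.00985). Mcm10 (0.72), Plk1 (0.74) and Aurka (0.72), the last 2 being mitotic kinases, were higher too, and Mki67, the proliferation antigen, differed by 0.56 (SE 0.12, adjusted p = 0.0189). The mitosis count was 8 without non-arthritic mouse 12, 13 without non-arthritic mouse 7, 14 without arthritic mouse 13 or 18 and 16 without arthritic mouse 14. All 29 mitosis genes kept an unadjusted p under 0.05 by limma without non-arthritic mouse 12 and without arthritic mouse 18, with medians of 0.62 and 0.59. The replication count was 5, 10, 12 and 12 without non-arthritic mouse 12, non-arthritic mouse 7, arthritic mouse 13 and arthritic mouse 18. With the sets taken again after leaving out the arrays with pancreas transcripts, 6 mitosis and 9 replication genes passed. Limma called 0 mitosis genes within control clusters A and B and within arthritic and non-arthritic mice, with 22, 28, 27 and 29 at an unadjusted p under 0.05. The replication counts there were 0, 0, 0 and 4, with 17, 24, 22 and 25 at an unadjusted p under 0.05.

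Megakaryocyte and platelet genes gave 14 higher of 17, beside 3.54% of all genes, and 0 lower, with a median of 0.95. Tubb1, the tubulin of platelets, ran from 12.16 to 12.99 with a median of 12.62 in the neutrophil-rich set and from 10.28 to 12.39 with a median of 10.89 in the neutrophil-poor set, a difference of 1.24 (SE 0.26, 2.36-fold higher in the rich set, adjusted p = 0.0159). Itga2b, the fibrinogen receptor chain CD41, ran from 11.95 to 12.70 with a median of 12.28 in the neutrophil-rich set and from 10.25 to 12.25 with a median of 10.88 in the neutrophil-poor set, a difference of 1.09 (SE 0.23, 2.13-fold higher in the rich set, adjusted p = 0.0162). In both genes some poor spleens reached the rich range while most lay far below it. The platelet receptor Clec1b differed by 0.97 (SE 0.20, adjusted p = 0.0159) and the platelet chemokine Pf4 by 0.94 (SE 0.22, adjusted p = 0.0244). The count was 6 without non-arthritic mouse 12, 8 without arthritic mouse 18 and 9 without non-arthritic mouse 5, and it was 6 within control cluster A, 0 within B, 0 within arthritic and 1 within non-arthritic mice, with 16, 7, 6 and 16 at an unadjusted p under 0.05. Among 14 progenitor genes 3 were higher, beside the same 3.54%: Prom1, the membrane protein CD133, which did not overlap between the sets, with 1.81 (SE 0.18, adjusted p = 2.86e-06), and the factors Zfpm1 and Lmo2 with 0.70 and 0.39. Cd34 (-0.34) and Mecom (-0.72), marks of earlier stem and progenitor cells, did not pass.

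The neutrophil and red cell programmes were set against each other by adding the erythroid list score of each mouse to the model. With it 34 of 12420 genes stayed higher in the rich set (0.274%), among them 7 of 12 primary granule genes, 11 of 22 later granule genes and 3 of 27 receptors. Elane differed by 2.16 and Cd177 by 2.47 in that fit, against 2.31 and 2.54 without the score. Of the replication, mitosis and platelet genes limma called 0 there, with 1, 2 and 13 at an unadjusted p under 0.05 and medians of 0.15, 0.14 and 0.76. The erythroid genes make up the score in that model, which fixes the mean of their differences over the list at 0, so their values in it are no result. The mitosis list score as a covariate, added after the data were seen, left 24 genes higher (0.193%), among them 7 primary and 11 later granule genes. Limma then called 0 receptor, 0 erythroid, 0 replication and 0 platelet genes, with 11, 2, 0 and 9 at an unadjusted p under 0.05, and the mitosis genes are again part of the model. The chemoattractant, interleukin 1, basophil and interferon lists had 0 calls with either score, with 1, 2, 2 and 1 genes at an unadjusted p under 0.05 with the erythroid and 0, 4, 2 and 3 with the mitosis score. The erythroid score itself ran from -0.31 to 0.55 in the rich and -1.31 to 0.11 in the poor set, and its part in the differences of other genes was not tested beyond these fits. Because the scores differ between the sets, calls in these fits can be lost through wider errors alone.

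**Figure D3:**
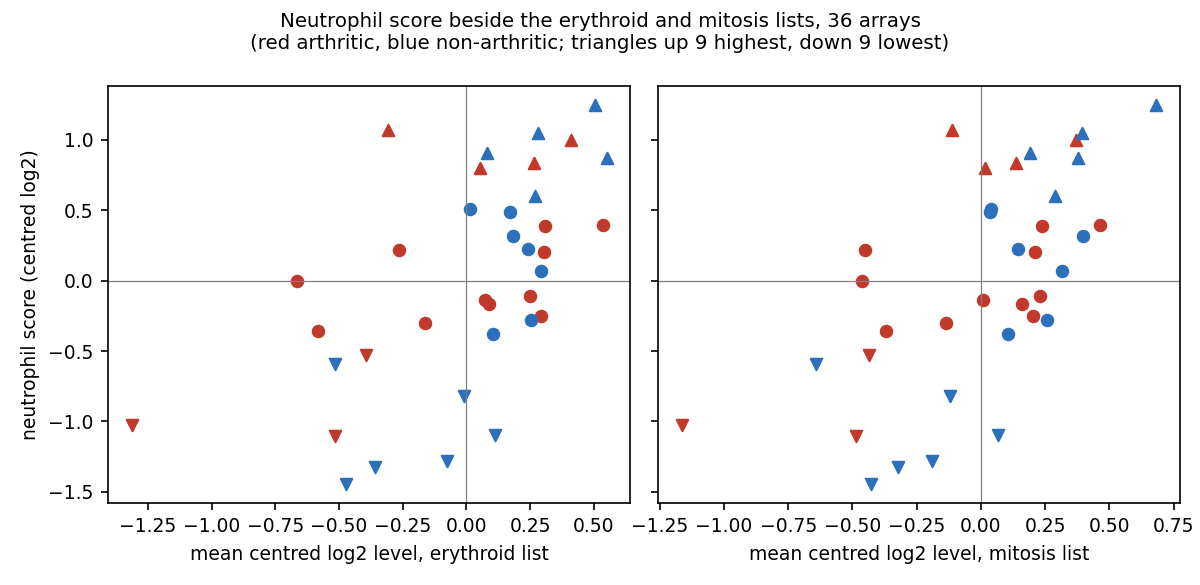
Neutrophil score (vertical axis, centred log2) of the 36 spleens against the mean centred log2 level of the erythroid list (left) and the mitosis list (right), with arthritic mice in red, non-arthritic mice in blue, and triangles for the 9 highest (up) and 9 lowest (down). Most rich spleens lie to the right and most poor ones to the left, with arthritic mouse 1 a rich spleen at an erythroid score of -0.31 and arthritic mouse 18 farthest left at -1.31.

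Some lymphocyte transcripts were lower in the neutrophil-rich spleens: 10 of 28 B cell, 3 of 27 T cell and 1 of 17 natural killer and cytotoxic genes passed, beside 1.76% lower of all genes. All 28 B cell genes had negative differences, beside 7007 of all 12420 genes, with a median of -0.33. Tnfrsf13c, the receptor for the B cell survival factor BAFF, ran from 10.93 to 11.76 with a median of 11.38 in the neutrophil-rich set and from 11.62 to 12.41 with a median of 11.86 in the neutrophil-poor set, a difference of -0.59 (SE 0.11, adjusted p = 0.0105). Blk, a B cell kinase, differed by -0.48 (SE 0.11, adjusted p = 0.02), Cd79a, a chain of the antigen receptor, by -0.41 (SE 0.10, adjusted p = 0.0304), and Bank1, an adaptor of that receptor, by -0.31 (SE 0.08, adjusted p = 0.0287). The B cell count was 2 without arthritic mouse 14, arthritic mouse 18 or non-arthritic mouse 12, 5 without non-arthritic mouse 5 or 6, and 6 without arthritic mouse 3.

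Of the 27 T cell genes 24 had negative differences, beside 7007 of all 12420 genes, and the median was -0.40. Ptprcap, which binds the phosphatase CD45, ran from 10.92 to 11.77 with a median of 11.14 in the neutrophil-rich set and from 11.35 to 12.21 with a median of 11.83 in the neutrophil-poor set, a difference of -0.63 (SE 0.11, 1.55-fold higher in the poor set, adjusted p = 0.00565), and arthritic mouse 12 alone among the rich spleens reached the poor range. Lef1, a factor of naive T cells, and Rasgrp1, which couples the T cell receptor to Ras, differed by -0.81 (SE 0.21, adjusted p = 0.035) and -0.51 (SE 0.13, adjusted p = 0.0326). Cd4 (-0.48, SE 0.14, adjusted p = 0.0546) and Cd3e (-0.10, SE 0.18, adjusted p = 0.829) did not pass. The T cell count was 1 without arthritic mouse 3, 14 or 18 or non-arthritic mouse 6 or 12. The natural killer and cytotoxic gene that passed was the chemokine Ccl5 (-0.49, SE 0.13, adjusted p = 0.0386), a call lost without arthritic mouse 18 or non-arthritic mouse 2, 3, 5, 6, 7, 10, 12, 16 or 17.

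Plasma cell genes gave 1 lower of 20, beside 1.76% of all genes. It was the factor Irf4 with -0.46 (SE 0.11, adjusted p = 0.0269), while the immunoglobulin heavy chain Igha stood at 14.71 ± 0.24 against 14.30 ± 0.44. Of 11 class II presentation genes 2 were lower, beside the same 1.76%: H2-Ob, which restrains peptide loading in B cells, with -0.54 (SE 0.13, adjusted p = 0.0293), and H2-Ab1, a chain of the class II molecule, with -0.41 (SE 0.10, adjusted p = 0.0316). Both calls were lost without arthritic mouse 13, 14 or 18 or non-arthritic mouse 7 or 12, that of H2-Ob also without arthritic mouse 16, and that of H2-Ab1 also without non-arthritic mouse 2, 3, 5 or 6. The Irf4 call was lost without arthritic mouse 18 or non-arthritic mouse 12.

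Nearly all calls of lower genes were lost once a score of dividing or red cell precursor genes was in the model. Both scores differed between the sets, with means of 0.23 in the rich and -0.39 in the poor set for the erythroid score. For the mitosis score they were 0.26 and -0.41. A term so tied to the sets widens the errors, so a call can be lost without a change of the difference. Why calls were lost was not tested. With the erythroid score 1 of 12420 genes was lower (0.00805%), Carns1, named here after its value was seen, and with the mitosis score 0 were, with 681 genes at an unadjusted p under 0.05 in either direction. Limma called 0 B cell, T cell, dendritic cell, class II, NF-kappaB target and stromal genes with the erythroid score, with 5, 5, 3, 1, 1 and 5 at an unadjusted p under 0.05. The B cell median was then -0.16 and the T cell median -0.16, that of class II genes 0.02 in place of -0.31, that of NF-kappaB targets -0.05 in place of -0.32, and that of stromal genes -0.28 as before. The natural killer and plasma cell lists had 0 calls as well, with 2 and 3 at an unadjusted p under 0.05. Within control clusters A and B limma called 0 B cell and 0 T cell genes, with 11 and 20 B cell and 6 and 14 T cell genes at an unadjusted p under 0.05.

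**Figure D4:**
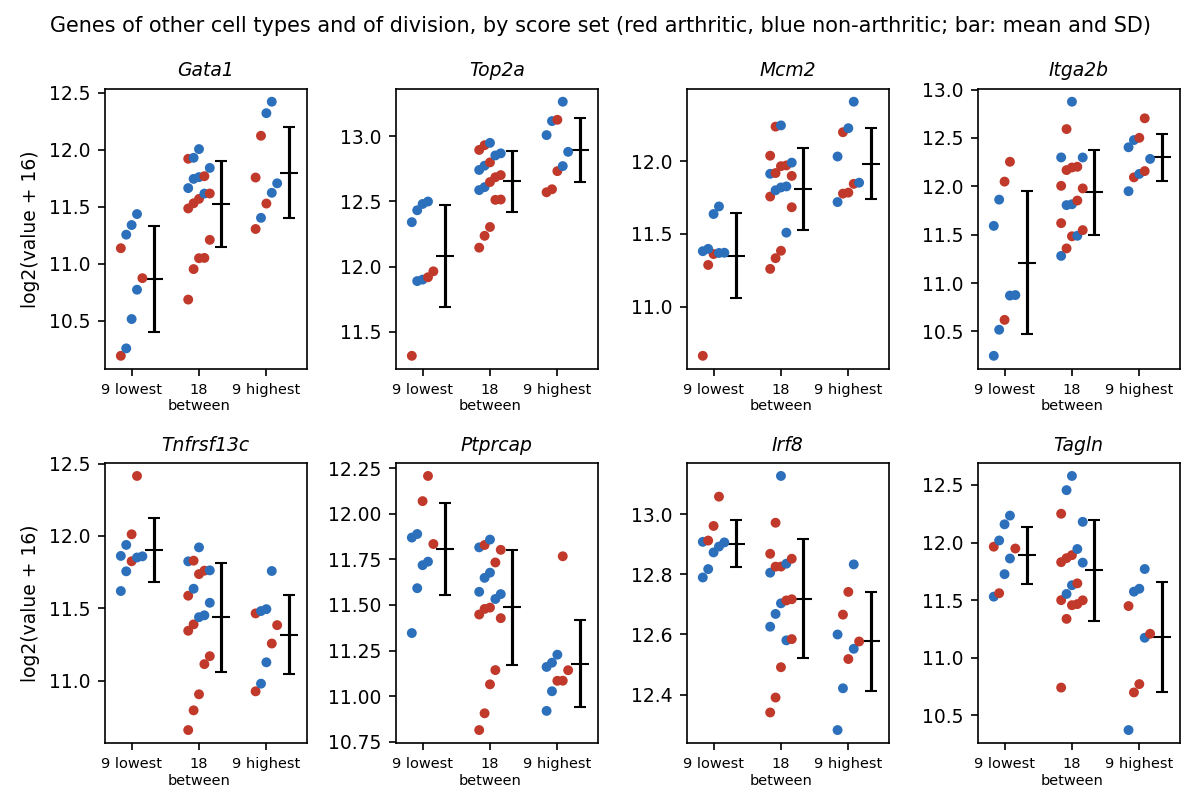
log2(value + 16) of 8 genes of other cell types and of division in the 9 lowest, 18 intermediate and 9 highest arrays by score; each point is 1 mouse (red arthritic, blue non-arthritic) and bars give the mean and SD of the set. Gata1, Top2a, Mcm2 and Itga2b are higher at the rich end, Tnfrsf13c, Ptprcap, Irf8 and Tagln lower, with smaller steps than those of the granule genes.

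Among genes of stress, inflammation and stroma, calls are read beside the 3.54% higher and 1.76% lower of all genes. Rsad2, an antiviral enzyme, was the only 1 of 22 interferon response genes to pass, with 0.80 (SE 0.21, adjusted p = 0.039); Ifit1 (1.01, SE 0.30, adjusted p = 0.0592) and Irf7 (0.76, SE 0.27, adjusted p = 0.114) did not, and under quantile normalization Rsad2 had an adjusted p of 0.0711. Its call was lost without arthritic mouse 13, 14, 16 or 18 or non-arthritic mouse 1, 2, 5, 12 or 17. Of 18 TNF and NF-kappaB targets 2 were lower, Icam1 and the NF-kappaB subunit Relb (-0.44, SE 0.10, adjusted p = 0.0182), the latter with any 1 mouse left out. The heat shock genes Hspa1a and Hspa1b had large but scattered differences, -1.43 (SE 0.42, adjusted p = 0.0625) and -1.47 (SE 0.48, adjusted p = 0.0857), and limma called 0 of 19 immediate early and heat shock genes, with 9 at an unadjusted p under 0.05. Of 18 stromal genes 4 were lower: the smooth muscle genes Tagln (-0.71, SE 0.16, adjusted p = 0.0224) and Myh11 (-0.77, SE 0.20, adjusted p = 0.039), the matrix proteoglycan Bgn (-0.34, SE 0.09, adjusted p = 0.035) and Cxcl13 (-0.50, SE 0.14, adjusted p = 0.0495), the chemokine that gathers B cells in follicles. The stromal count was 1 or 2 unless the mouse left out was arthritic mouse 1, 12 or 16 or non-arthritic mouse 10 or 16, and 0 when the arrays with pancreas transcripts were left out and the sets taken again, with 6 at an unadjusted p under 0.05.

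Limma called 0 of 7 adipose, 0 of 7 pancreas and 0 of 4 sex-linked genes, with 1, 0 and 1 at an unadjusted p under 0.05. Pancreas transcripts stood high in 1 spleen of each set, non-arthritic mouse 6 among the rich with a list score of 5.11 and non-arthritic mouse 5 among the poor with 6.61, against medians of -0.34 and -0.60. Without the arrays that carry them 497 probe sets were called in place of 983. The Y-linked Kdm5d stood at 8.86 ± 0.08 against 9.23 ± 0.28 and Eif2s3y at 10.64 ± 0.26 against 10.74 ± 0.43.

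**Figure D5:**
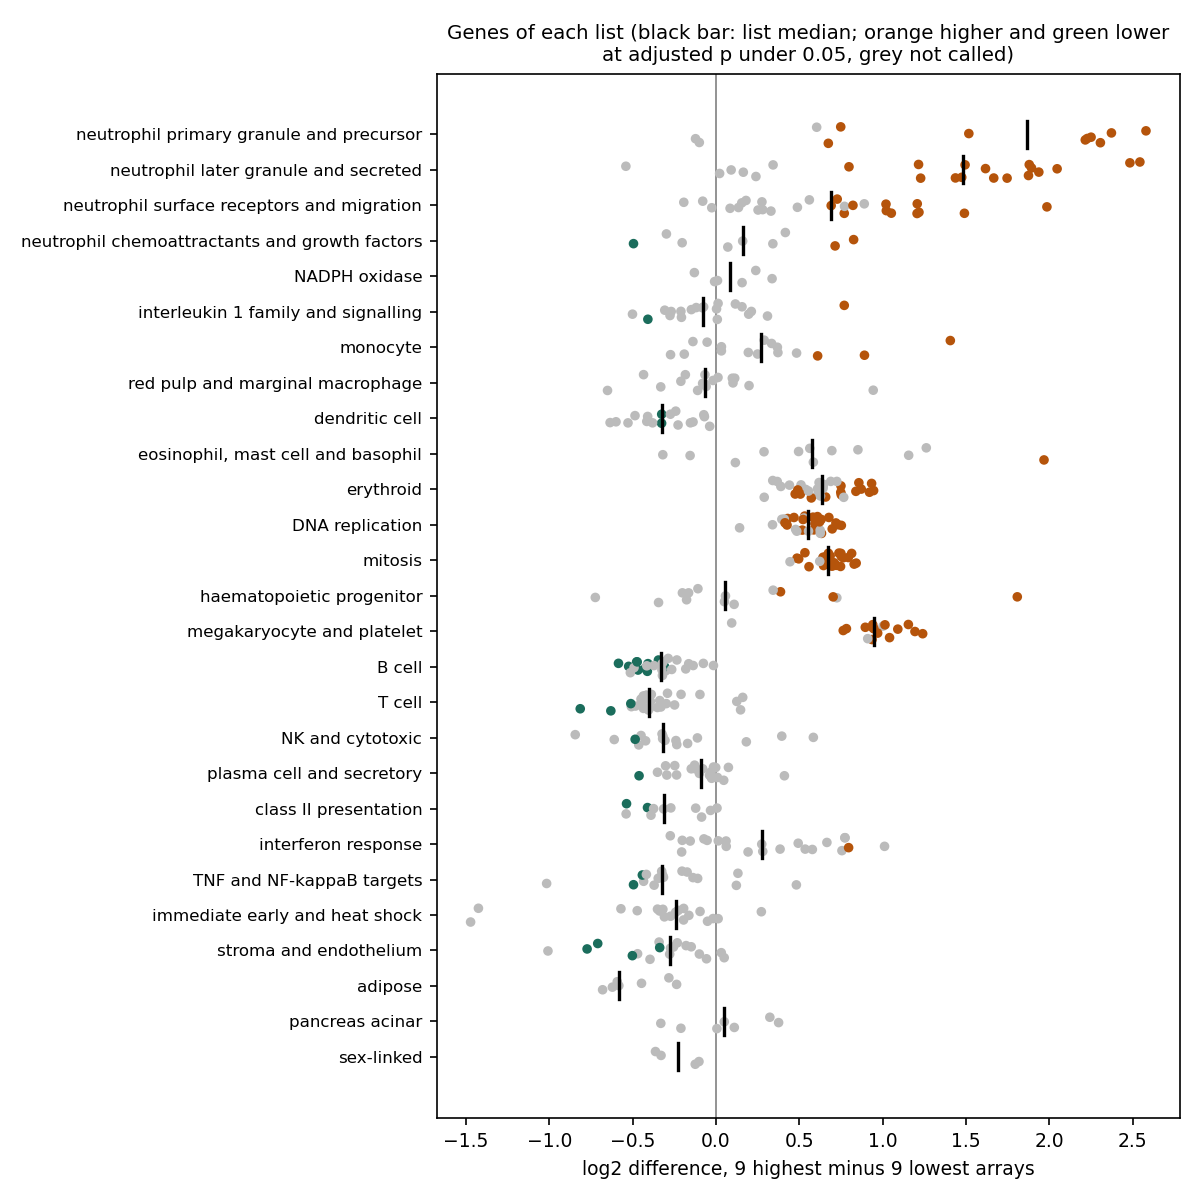
Difference between the sets in log2(value + 16), 9 highest minus 9 lowest arrays, for every tested gene (points) of 27 gene lists (rows), with a black bar at each list's median; orange genes were called higher, green lower, grey not called. The neutrophil granule lists reach beyond 2, the erythroid, division and platelet lists lie mostly between 0.3 and 1.2, and the medians of the lymphocyte lists lie below 0.

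Among all genes outside the score, the 12 largest differences past the threshold belonged mostly to granule genes already described. The others were Mapk13, a stress-activated kinase of the p38 group, Slfn4, a Schlafen family gene of myeloid cells, and AA467197. Mapk13 ran from 7.36 to 8.70 with a median of 8.14 in the neutrophil-rich set and from 4.53 to 6.64 with a median of 5.34 in the neutrophil-poor set, a difference of 2.61 (SE 0.29, 6.12-fold higher in the rich set, adjusted p = 1.33e-05). Slfn4 differed by 2.30 (SE 0.20, adjusted p = 2.35e-07), and its probe set may read the related Slfn3. AA467197 differed by 2.14 (SE 0.35, adjusted p = 0.00273) with overlap of the sets. The poor medians of Mapk13 (5.34) and AA467197 (6.13) lay under the intensity filter's cut of 6.49. Both differences thus rest partly on dim values, and their sizes are uncertain.

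The 12 largest negative differences were smaller than these, and 2 of them, Lef1 and Myh11, belonged to lists described above. Ggt5, an enzyme that converts leukotriene C4, ran from 7.74 to 10.30 with a median of 9.25 in the neutrophil-rich set and from 9.42 to 11.03 with a median of 10.64 in the neutrophil-poor set, a difference of -1.18 (SE 0.30, 2.26-fold higher in the poor set, adjusted p = 0.0329); 1 of its 2 other probe sets pointed the same way. Acacb, the mitochondrial acetyl-CoA carboxylase, differed by -1.15 (SE 0.28, adjusted p = 0.0294) and Rasal1, a Ras inhibitor, by -1.04 (SE 0.29, adjusted p = 0.0472). The rich median of Acacb, 6.46, lay just under the intensity filter's cut of 6.49. Apoc1, an apolipoprotein of macrophages and liver, differed by -1.03 (SE 0.27, adjusted p = 0.0356), with arthritic mouse 18 far above the other poor spleens at 9.94. The remaining ones were Cdh2 (-0.93), Abcd4 (-0.89), Rpl37 (-0.85), Igfbp3 (-0.82), Lef1, Myh11, Cryab (-0.77) and Parp3 (-0.76). Over the alternative settings the Parp3 call held in 11 and weakened in 30, and that of Rasal1 held in 11 and weakened in 29. Calls weakened in 27 settings for Cdh2, 24 for Myh11, 21 for Rpl37 and 20 for Cryab. They did so in 18 for Apoc1 and Lef1, 17 for Ggt5 and Acacb, 11 for Igfbp3 and 7 for Abcd4. Abcd4 had sets that did not overlap, with 6.75 ± 0.27 against 7.64 ± 0.34.

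The 18 arrays between the extremes took no part in the comparison, and the score was set against all genes within them. There 6 of 12420 genes (0.0483%) had a slope on the score past the threshold, all positive and all from the lists of neutrophil granule genes. Ctsg changed by 1.49 (SE 0.16, adjusted p = 0.000253) log2 units per unit of score, Cd177 by 1.27 (SE 0.17, adjusted p = 0.00373), Prtn3 by 1.25 (SE 0.18, adjusted p = 0.00652), Anxa1 by 0.84 (SE 0.14, adjusted p = 0.0311), Elane by 1.28 (SE 0.21, adjusted p = 0.0257) and Mpo by 1.17 (SE 0.19, adjusted p = 0.0257). Of the list genes, 10 of 12 primary and 19 of 22 later granule genes had positive slopes there, with medians of 1.02 and 0.74. Over all probe sets tested 45.1% of slopes were positive. All 32 erythroid genes, 27 of 29 mitosis genes and all 17 platelet genes also had positive slopes, with medians of 0.30, 0.20 and 0.36, but limma called 0 of them, with 3, 0 and 0 at an unadjusted p under 0.05. Of 28 B cell genes 0 were called and 5 had an unadjusted p under 0.05, with a median of -0.31. Mcpt8, whose list had 9 of 12 negative slopes, had a slope of 1.04 (SE 0.36, adjusted p = 0.961), and Csf3r one of 0.03 (SE 0.40, adjusted p = 0.996).

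Disease label and neutrophil score were then set against each other. The mean score was 0.05 ± 0.63 in the 18 arthritic and -0.05 ± 0.88 in the 18 non-arthritic mice, a difference of 0.10, given as a description because the score chose the sets. Whether the slope on the score differed between arthritic and non-arthritic mice was tested over all 36 arrays: limma called 0 of 27015 probe sets, with 4074 at an unadjusted p under 0.05 and a lowest adjusted p of 0.116. For Elane the slope in arthritic minus that in non-arthritic mice was -0.16 (SE 0.14, adjusted p = 0.563) and for Gata1 it was 0.01 (SE 0.17, adjusted p = 0.979). With the control cluster as a block limma again called 0, with 1643 at an unadjusted p under 0.05. Arthritic mice 1 to 9 all lay in control cluster A, so label and cluster are partly tied. The 0 calls do not show that the slopes were equal. Within each label, 5 rich against 5 poor mice gave 34 probe sets in arthritic and 97 in non-arthritic mice, counts whose difference was not tested.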

How the data were processed

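RNA of whole spleens, 1 array per mouse, was measured in 18 arthritic and 18 non-arthritic mice, with groups and replicate numbers taken from the sample titles; nothing else tells the mice apart. The authors deposited linear microarray intensity values, and the submitters' processing notes name MAS5 without a version. Each array of the deposited intensity table had a mean of 500.0 after trimming 2% of probe sets at each end, so each had been scaled by 1 factor. From the deposited intensity, log2(value + 16) was computed here; the log2 scale with this pseudocount understates differences of dim probe sets. The number of arrays limits the precision.

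Of 45101 probe sets, 64 controls, those with a mean log2 under 6.49 (40th percentile) and 7 that name a score gene were left out, which left 27015. Gene names came from GEO's platform annotation: 34945 probe sets have 1 gene, 932 several and 9160 no entry, and 34754 could be matched to RefSeq (GRCm38.p6). A gene stands for its probe set of highest mean among those that name only that gene. The sets were compared with limma 3.58.1 in R 4.3.3 (lmFit, eBayes with trend, two-sided, Benjamini-Hochberg over all tested probe sets, threshold 0.05). Python 3.11.15 was used for the rest. The fits were tested on simulated data.

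The members, lists and tests were chosen with earlier results of these data known. Genes named are the score genes, the 12 largest positive and 12 largest negative differences past the threshold, up to 4 genes of smallest p per list, and a set of genes always given; others were named after their values were seen. A few genes on the lists are not reported here. Control clusters are Ward clusters, 3 in number, of 18 hybridisation control probe sets centred per array and per probe set. The centring was settled after several had been tried, and without centring per array the clusters differed. Alternatives covered the pseudocount, filter, normalization, test, covariates, set size, score genes and each mouse left out.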

Additional observations from a re-analysis of the deposited data

Results flagged for a closer look

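Within each set of 9 spleens, single arrays stood apart from the other 8 by a gap above Dixon's critical value in 13 of 178 sets of values looked at. Chance alone flags about 1 in 20. Arthritic mouse 18, a neutrophil-poor spleen, gave 8 of them: Apoc1 at 9.94, where the other poor spleens ended at 8.09, and low values of Epor at 9.06, Emilin2 at 8.996, Mcm2 at 10.66, Dut at 9.95, Hmmr at 9.19 and Zfpm1 at 10.16, together with an erythroid list score of -1.31. Leaving it out gave 470 probe sets in place of 983.

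The other 5 were spread over 5 mice. Arthritic mouse 13 was low in Apoc1 among the rich spleens (6.04), non-arthritic mouse 6 in the smooth muscle gene Myh11 (7.85) and non-arthritic mouse 17 in Il1r2 (7.17). Arthritic mouse 14 was high in Tnfrsf13c among the poor spleens (12.41), and arthritic mouse 12 was high in Ptprcap among the rich ones (11.77). Causes were not tested.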

How the results depend on the processing

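The count of 983 probe sets became 627 with no filter on low values, 644 with no trend in the variance prior, 1670 with the arthritis label as a term, 1576 with the Gapdh ratio as a term, 43 with the erythroid score and 30 with the mitosis score as a covariate, 90 with 6 and 2031 with 12 arrays at each end, and 2228 as a slope over all 36 arrays. It was 497 without the arrays that carry pancreas transcripts, 34 within arthritic and 97 within non-arthritic mice, and 41 within control cluster A and 24 within B, where fewer arrays were compared; the cause of the other changes was not tested. Leaving out 1 mouse gave 312 to 1516. The remaining settings stayed within 1.5 times. Of the 607 higher and 376 lower calls, 488 and 370 kept their sign with the mitosis score, 599 and 376 with the erythroid score, and 607 and 375 within arthritic mice. The stricter filter tested 550 and 349 of them; these, and all 983 in each other alternative of the comparison, kept their sign. The 6 slopes among the arrays between the extremes became 17 with the control cluster as a block. The fits with the mitosis score, within control cluster A or B and without the 2 brightest arrays were added after seeing the data.

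The labels do not say whether equal replicate numbers pair mice. Same-numbered arrays correlated at over 0.1 in 11 of 18 pairs (-0.23 to 0.47), and 2 arthritic arrays correlated best with their own number. These values do not decide the question. Pairing mice by replicate number leaves the score difference between disease labels at 0.10 by arithmetic, so that value is no check. With 6 or 12 arrays at each end, the rich and poor sets held equal numbers of arthritic mice (a difference of 0). Dim genes are limited by the scanner's background, which the deposited values do not give.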
